A study of Mus musculus with 12 samples.

Results

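Collagens are the proteins that give the extracellular matrix its fibrils, networks and filaments. Each is a triple helix of 3 α chains, which can be of the same kind or of different kinds, and each kind of chain has a gene of its own. Of the 40800 genes in the deposited count table, 44 are protein-coding genes with a collagen chain symbol (Col, a number, a, a number), and these 44 are described here. By the type of assembly their chains form they fall into 11 fibrillar, 8 basement membrane, 9 FACIT (fibril-associated collagens with interrupted triple helices) and 16 other genes, the last made of beaded filament, short-chain network, transmembrane, anchoring fibril and unclassed collagens. Their RNA was counted by bulk sequencing in ventricles of mouse hearts at embryonic day 12.5, in 6 libraries with Wnt gain of function (Wnt GOF, a genotype in which the Wnt pathway is more active) and 6 control libraries. The labels name no allele, Cre driver or strain, and do not say how many embryos went into a library, so p-values measure only the spread between these libraries. The title of the series sets the study in the field of arrhythmia and of differences between the right and left ventricle, but the labels do not say from which ventricle a library came.

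As background, fibrillar collagens I, III and V form the fibrils of the cushions, the valves, the epicardium and the interstitium of the embryonic heart. Type IV collagen is the network of basement membranes around cardiomyocytes and under the endocardium, and types XV and XVIII are basement membrane collagens whose C-terminal fragments are known for effects on vessels. Canonical Wnt signalling acts through β-catenin and TCF/LEF transcription factors, and in the embryonic heart it is known for roles in cushion formation and in the growth of the myocardium.

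Library totals ran over 12127026 to 17184662 counts in Wnt GOF and over 10130088 to 17526325 counts in control libraries, and 14774 genes passed a filter on low counts and were tested. Cardiomyocyte markers were abundant in every library, with 8 markers summing to 28322 to 36657 CPM (read counts scaled to library size) in Wnt GOF and 29545 to 39131 CPM in control libraries. Axin2, a feedback inhibitor and common readout of Wnt signalling, was at 14.9 to 26.0 CPM in 5 Wnt GOF libraries and at 3.77 CPM in the library labelled Wnt GOF 5, against 1.39 to 4.13 CPM in control libraries. The library labelled Wnt GOF 5 thus lay within the control range for this readout, and the main results of the collagen genes are given with and without it. Named genes outside the collagens and the tests of chain ratios are given with it only. The 12 libraries were also put in 3 library sets, by clustering their deviations from the group means over all tested genes and cutting the clusters in 3. Set 1 holds Wnt GOF 1 and 2 and control 2 and 3, set 2 holds Wnt GOF 3 and 4 and control 4 and 5, and set 3 holds Wnt GOF 5 and 6 and control 1 and 6. The deviations of library pairs correlated at 0.463 to 0.605 in set 1 and 0.362 to 0.492 in set 2, but at -0.075 to 0.134 in set 3, which holds what the other sets left. The library labelled Wnt GOF 5 correlated best with control 4, of set 2, at 0.169. Differences within set 3 are therefore less of a matched comparison than those within the other sets. The labels name no batch, day or litter that matches these sets, and each set holds 2 libraries of each group. Leaving the collagen genes out gave the same sets.

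Together the 44 genes took 0.167% to 0.240% of the counts of Wnt GOF libraries and 0.190% to 0.239% of those of control libraries. Their summed level had a lowest, median and highest of 1729, 2017 and 2388 CPM in Wnt GOF and of 1876, 2313 and 2443 CPM in control libraries, so the groups overlapped. Of the collagen counts, Col1a1, Col1a2, Col3a1 and Col4a1 held 57.8% to 63.6% in Wnt GOF and 58.2% to 70.5% in control libraries. Per kilobase of exon the highest fibrillar levels were those of Col1a1 (43.6 CPM per kb in Wnt GOF, 62.4 in control) and Col3a1 (40.7 and 44.7 in the same order). Col4a1 led the basement membrane genes (37.7 CPM per kb in Wnt GOF and 34.4 in control), Col14a1 the FACIT genes (2.75 and 2.95) and Col23a1 the other types (11.2 and 7.60). Exon lengths are the union of all transcripts in GENCODE M21, 12.4 kb for Col1a2 and 6.56 kb for Col1a1, so a long transcript that is rarely used lowers the level per kb. In bulk tissue fewer cells that make a collagen and less of its RNA per cell cannot be told apart.

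**Figure D1:**
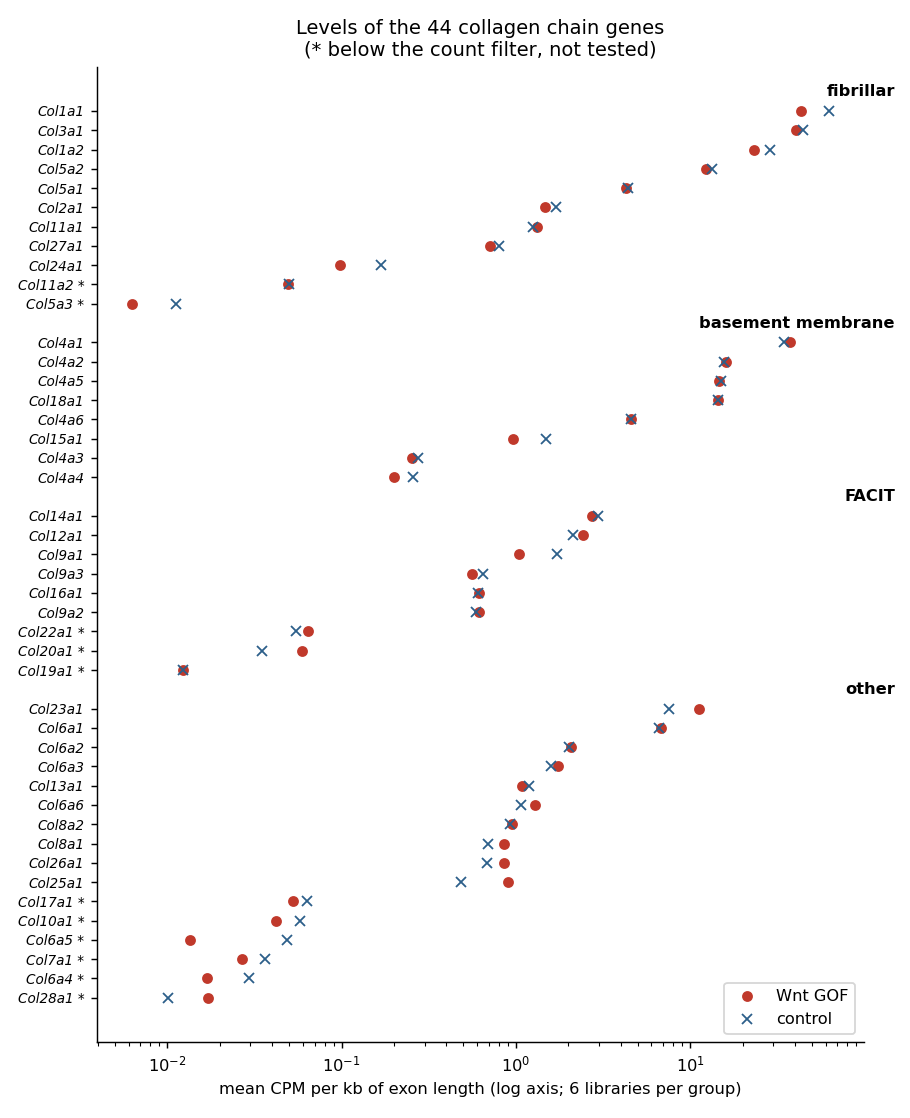
Mean level of each of the 44 collagen chain genes in CPM per kb of exon length (log axis), over 6 Wnt GOF libraries (circles) and 6 control libraries (crosses), grouped by type. Col1a1, Col3a1 and Col4a1 stand highest at 34.4 to 62.4 CPM per kb, and the 11 genes marked with a star fell below the count filter.

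Of the 44 genes, 33 passed the count filter and were tested, 9 of the fibrillar, all 8 of the basement membrane, 6 of the FACIT and 10 of the other genes. At an adjusted p under 0.05 (edgeR's quasi-likelihood test, Benjamini-Hochberg over all 14774 genes), 1 collagen gene rose in Wnt GOF ventricles, Col23a1, and 0 fell. Over all tested genes 0.501% were called, 0.433% higher and 0.0677% lower. At an unadjusted p under 0.05 stood 4 collagen genes of 33, Col23a1, Col25a1, Col24a1 and Col1a2, beside 6.30% of all tested genes. Without the library labelled Wnt GOF 5 there were also 4, with Col26a1 in place of Col1a2. Of the 33, 17 had a log2 fold change above 0 and 16 below 0, with a median of 0.0002, and over all tested genes 7450 lay above 0 and 7324 below 0, with a median of 0.0013. DESeq2 called 2 collagen genes, both higher, beside 1.08% of all genes. Without the library labelled Wnt GOF 5, edgeR called the same 2, Col23a1 and Col25a1, beside 1.19% of all genes tested then. The 11 genes below the filter were Col5a3 and Col11a2 of the fibrillar, Col19a1, Col20a1 and Col22a1 of the FACIT, and Col6a4, Col6a5, Col7a1, Col10a1, Col17a1 and Col28a1 of the other genes, and none of them exceeded 1.31 CPM in any library.

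**Figure D2:**
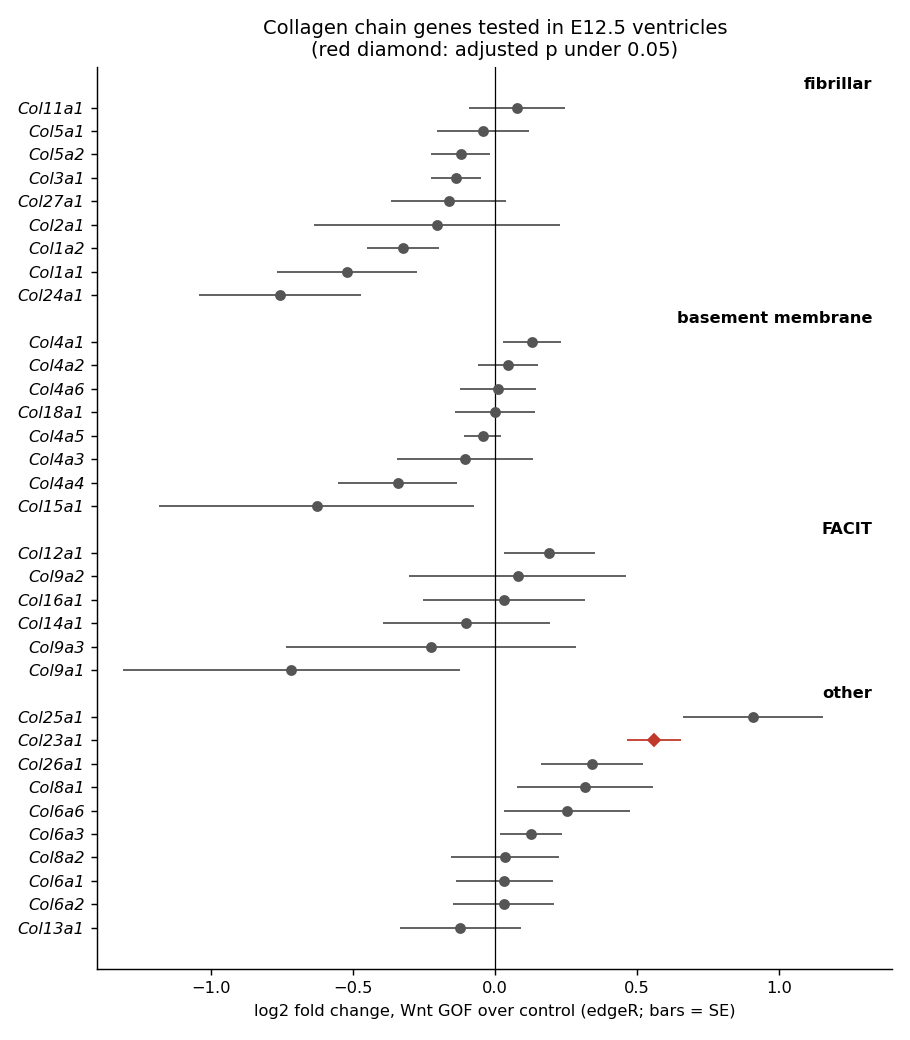
Log2 fold change (Wnt GOF over control) of the 33 tested collagen chain genes with its standard error as bars, by type. Col23a1 (red diamond, 0.56) passed the threshold, 8 of 9 fibrillar genes lie left of 0, and 9 of 10 genes of the other types lie right of it.

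Col23a1 (ENSMUSG00000063564) encodes collagen XXIII, a transmembrane collagen whose ectodomain can be shed from the cell surface. Its level had a lowest, median and highest of 55.1, 64.4 and 73.2 CPM in Wnt GOF libraries, against 33.4, 43.5 and 49.2 CPM in control libraries. Every Wnt GOF library lay above every control library, which held in either direction for 0.460% of all tested genes, and the library labelled Wnt GOF 5 was the lowest of its group. The mean was 64.4 ± 6.20 CPM in Wnt GOF and 43.6 ± 5.73 CPM in control libraries (SD, n = 6 each), a ratio of 1.48 or 0.56 ± 0.0951 on the log2 scale (SE, edgeR adjusted p = 0.0145). Without the library labelled Wnt GOF 5 the log2 fold change was 0.60 ± 0.0959 (edgeR adjusted p = 0.00267). Within the library sets the log2 differences were 0.57 in set 1, 0.49 in set 2 and 0.63 in set 3, and both Wnt GOF libraries exceeded both control libraries in each. With the sets as a block the edgeR adjusted p was 0.0024. That p may be too small, since the sets were derived from the same libraries. The call was lost with the closest library pairs summed (edgeR adjusted p = 0.208), without set 1 or set 2 (0.171 and 0.347) and in limma-voom (0.0504). The authors' deposited table gives Col23a1 a log2 fold change of 0.56 with an interval of 0.35 to 0.77 and an adjusted p of 0.0378. The authors' deposited table calls 0.130% of its genes at an adjusted p under 0.05.

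The 250 bases before the annotated starts of Col23a1 and Col25a1, from RefSeq on GRCm38.p6, are shown because these are the 2 collagen genes with the lowest p and both are transmembrane collagens. They lie on the plus strand at chr11:51289670-51289919 for Col23a1 and at chr3:130180595-130180844 for Col25a1. Capitals mark CTTTG, the core of the sequence that TCF/LEF factors bind, searched on both strands (as CTTTG or CAAAG).
Col23a1: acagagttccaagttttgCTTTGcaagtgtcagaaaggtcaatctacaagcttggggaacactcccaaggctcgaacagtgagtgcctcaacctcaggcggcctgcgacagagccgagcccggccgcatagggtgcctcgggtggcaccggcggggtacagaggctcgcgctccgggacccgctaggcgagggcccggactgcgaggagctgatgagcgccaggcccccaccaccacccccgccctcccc
Col25a1: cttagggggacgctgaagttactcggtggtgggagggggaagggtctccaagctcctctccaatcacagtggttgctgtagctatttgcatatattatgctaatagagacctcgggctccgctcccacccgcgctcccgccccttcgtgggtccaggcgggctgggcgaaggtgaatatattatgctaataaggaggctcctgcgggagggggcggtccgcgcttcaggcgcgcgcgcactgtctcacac
The Col23a1 window holds this core once, beginning at -232 from the start, and the Col25a1 window holds it on neither strand. The core is short: of 32851 promoters of the same length in the table, 48.6% hold it, as do 20 of the 38 listed for collagen genes. The longer form CTTTGAT (or ATCAAAG) stands in 3.21% of all promoters and in 1 of the collagen promoters, that of Col9a2, and CTTTGAA (or TTCAAAG) in 4.46% and in 4, those of Col6a2, Col9a1, Col13a1 and Col15a1. A match is a description of these letters and not a binding site. The start of Col25a1 in this table lies inside the GENCODE gene, which begins at position 130131501 of chromosome 3, so other transcripts of it have other promoters. The table held promoters for 35 of the 44 genes.

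Col25a1 (ENSMUSG00000058897) encodes collagen XXV, a transmembrane collagen known from neurons and developing muscle. Its level was 10.3 to 16.2 CPM in 5 Wnt GOF libraries and 4.37 CPM in the library labelled Wnt GOF 5, against 4.83 to 8.16 CPM in control libraries, so the groups overlapped through that 1 library. The groups differed by 0.91 ± 0.247 on the log2 scale (SE, edgeR adjusted p = 0.204). It was past the threshold in DESeq2 (adjusted p = 0.0334) and in edgeR without the library labelled Wnt GOF 5, where the log2 fold change was 1.08 ± 0.163 (adjusted p = 0.00178). Within the library sets the log2 differences were 1.06 in set 1, 1.05 in set 2 and 0.48 in set 3, which holds the library labelled Wnt GOF 5. Of the other 2 transmembrane collagens, Col13a1, found at neuromuscular and cell-matrix junctions, had -0.12 ± 0.214 (edgeR adjusted p = 0.999) and Col17a1, a hemidesmosome component of epithelia, was at 0.705 CPM or below in every library and was not tested. Col26a1, which encodes a secreted collagen known from testis and ovary, had a lowest, median and highest of 4.66, 7.23 and 9.56 CPM in Wnt GOF and of 4.07, 5.62 and 6.99 CPM in control libraries. Its log2 fold change was 0.34 ± 0.179 (edgeR adjusted p = 0.885), and without the library labelled Wnt GOF 5 it was 0.44 ± 0.168 (edgeR adjusted p = 0.445).

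**Figure D3:**
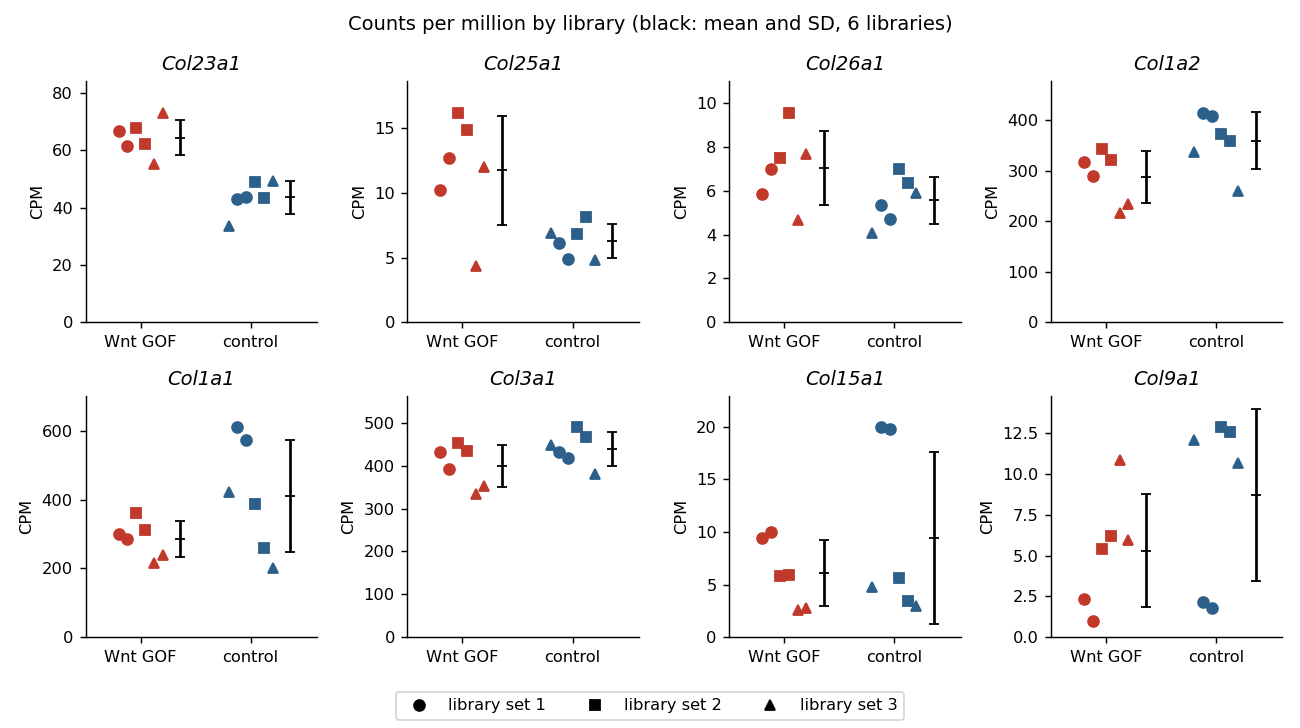
CPM of 8 collagen chain genes in each library, Wnt GOF left (red) and control right (blue), with the library set as symbol and the mean and SD over 6 libraries in black. For Col23a1 all Wnt GOF points (55.1 to 73.2 CPM) lie above all control points (33.4 to 49.2 CPM), while for Col15a1 and Col9a1 the set 1 libraries stand apart in both groups.

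Of the 9 tested fibrillar genes, 0 were called in either direction and 8 had a log2 fold change below 0, with a median of -0.16 (7 of 9 without the library labelled Wnt GOF 5). The count was 8 of 9 under each other scaling tried. The summed level of the 11 fibrillar genes had a lowest, median and highest of 948, 1178 and 1397 CPM in Wnt GOF and of 1055, 1462 and 1627 CPM in control libraries. Col1a2 (ENSMUSG00000029661), the α2 chain of type I collagen, was at 216, 304 and 344 CPM in Wnt GOF (lowest, median and highest) and at 261, 367 and 416 CPM in control libraries, and the groups overlapped. Its log2 fold change was -0.32 ± 0.128 (SE, edgeR adjusted p = 0.582). Within each library set both Wnt GOF libraries lay below both control libraries, by a log2 difference of -0.44 in set 1, -0.14 in set 2 and -0.41 in set 3. Col1a2 and Col23a1 were the only 2 of the 33 tested collagen genes that did not overlap in the same direction within all 3 sets, which held for 2.96% of all tested genes. In a fit with the sets as a block, which called 2.00% of all genes, the edgeR adjusted p of Col1a2 was 0.0143. No other alternative run called Col1a2, and this p too may be too small, since the sets were derived from the same libraries. Without the library labelled Wnt GOF 5 the log2 fold change without the block was -0.25 ± 0.121 (edgeR adjusted p = 0.669). The authors' deposited table gives Col1a2 -0.32 with an adjusted p of 0.598.

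Col1a1 (ENSMUSG00000001506), the α1 chain of type I collagen, was at 217, 294 and 360 CPM in Wnt GOF and at 203, 406 and 610 CPM in control libraries (lowest, median and highest). The highest control values, 610 and 575 CPM, were those of control 2 and 3 in set 1, and control 6 at 203 CPM lay below every Wnt GOF library. Its log2 fold change was -0.52 ± 0.246 (edgeR adjusted p = 0.81), with log2 differences of -1.01 in set 1, 0.05 in set 2 and -0.46 in set 3. Col3a1, which forms the thin fibrils of elastic tissues with type I, had -0.14 ± 0.0883 (edgeR adjusted p = 0.999) and 333 to 453 CPM in Wnt GOF against 379 to 489 CPM in control libraries. The type V chains, which nucleate type I fibrils and set their width, had -0.12 ± 0.103 for Col5a2 and -0.04 ± 0.163 for Col5a1 (edgeR adjusted p = 0.999 for both). Col24a1, a fibrillar collagen known from developing bone and cornea, had the lowest fold change of all tested collagen genes at -0.76 ± 0.287 (edgeR adjusted p = 0.534). It was low in every library, with 0.621 to 0.962 CPM in Wnt GOF and 0.632 to 2.12 CPM in control libraries, and the 2 highest values were those of control 4 and 5. The cartilage collagen genes Col2a1 and Col11a1 had -0.20 ± 0.433 and 0.08 ± 0.169, and Col27a1, another cartilage-associated fibrillar collagen, had -0.16 ± 0.203 (edgeR adjusted p = 0.999 for each).

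Markers of cells that make fibrillar collagen were measured beside these genes. Of 10 tested cushion and valve mesenchyme markers 0 were called and 10 lay below 0, with a median of -0.12 on the log2 scale and a summed level of 1576 to 2077 CPM in Wnt GOF and 1556 to 2552 CPM in control libraries. Of 8 fibroblast lineage markers, of which Col1a1 is one, 0 were called and 5 lay below 0, with a median of -0.18 and sums of 748 to 1124 CPM in Wnt GOF and 870 to 1340 CPM in control libraries. Of 8 epicardial markers 0 were called and 6 lay below 0 (median -0.04), with sums of 337 to 411 CPM in Wnt GOF and 303 to 436 CPM in control libraries. Of 10 mural cell markers 1 was called, beside 0.501% of all tested genes, and 8 lay below 0, with a median of -0.14. Their sums overlapped, at 1751 to 1988 CPM in Wnt GOF and 1828 to 2246 CPM in control libraries. The called gene, Rgs5, a pericyte gene, was at 5.26 to 28.9 CPM in Wnt GOF and 30.2 to 112.3 CPM in control libraries. Its log2 fold change was -2.54 ± 0.461 (edgeR adjusted p = 0.0404). Above 0 were Pdgfrb (0.01 ± 0.0928) and Kcnj8 (0.75 ± 0.554). The other mural markers lay below 0, at -0.73 ± 0.452 (Myh11), -0.28 ± 0.121 (Notch3) and -0.28 ± 0.355 (Tagln). Abcc9 had -0.17 ± 0.202, Acta2 -0.10 ± 0.0685, Cnn1 -0.05 ± 0.0892 and Cspg4 -0.03 ± 0.0729. Of 9 endothelial markers 0 were called, with sums of 821 to 889 CPM in Wnt GOF and 753 to 833 CPM in control libraries. Erythroid markers summed to 9291 to 85084 CPM in Wnt GOF and 6304 to 67492 CPM in control libraries, and 0 were called. Of 4 tested neural crest, nerve and Schwann cell markers 0 were called, with sums of 25.9 to 38.4 CPM in Wnt GOF and 26.2 to 43.9 CPM in control libraries. The 5 liver markers, 1 of which had 0 counts in all libraries, summed to 0.879 to 25.7 CPM in Wnt GOF and 0.793 to 9.29 CPM in control libraries. Lung and gut epithelium markers summed to at most 1.18 CPM in Wnt GOF and 1.19 CPM in control libraries. The part of these cells in the collagen values was not tested.

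The 8 basement membrane genes had 0 calls, 4 log2 fold changes above 0 and 4 below 0, and a median of -0.02, with 0 genes at an unadjusted p under 0.05. With DESeq2 size factors 3 lay above 0 and 5 below 0, since Col18a1 stands so near 0, and without the library labelled Wnt GOF 5 it was 2 above and 6 below. Col4a1 and Col4a2, whose chains form the main type IV network, had 0.13 ± 0.101 and 0.05 ± 0.107 (edgeR adjusted p = 0.999 for both). Col4a1 was at 233 to 332 CPM in Wnt GOF and 201 to 294 CPM in control libraries, and Col4a2 at 84.2 to 120.0 CPM and 79.7 to 129.6 CPM in the same order. Col4a5 and Col4a6, the X-linked chains of other type IV networks, had -0.04 ± 0.0644 and 0.01 ± 0.134, and Col4a5 had the smallest SE of the 33 genes. Col4a3 and Col4a4, known from the glomerular basement membrane, were at 4.86 CPM or below in every library, with -0.11 ± 0.238 and -0.34 ± 0.209. The genes of these chains lie in pairs that are read away from each other. In GENCODE M21 on GRCm38, the starts of Col4a1 and Col4a2 on chromosome 8 overlap by 22 bases, those of Col4a4 and Col4a3 on chromosome 1 lie 72 bases apart, and those of Col4a6 and Col4a5 on chromosome X 1309 bases apart. Since the strand setting of the counting is not given in the sources used here, reads in the shared bases could count for either gene of the first pair, but these are 0.29% of the exon length of Col4a1 and 0.33% of that of Col4a2. Larger overlaps with a gene on the other strand were found for Col9a3 (6.07% of its exon length, with Tcfl5) and Col4a3 (5.65%). Col18a1, the source of endostatin, had 0.0002 ± 0.141, with 78.3 to 120.6 CPM in Wnt GOF and 70.5 to 125.5 CPM in control libraries. Col15a1, its closest relative, had -0.63 ± 0.556 (edgeR adjusted p = 0.999), a value that rested on set 1: control 2 and 3 were at 19.9 and 19.8 CPM and Wnt GOF 1 and 2 at 9.40 and 9.97 CPM, while the other 8 libraries spanned 2.59 to 5.93 CPM. With set 1 left out its log2 fold change was 0.04.

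The 6 tested FACIT genes had 0 calls and 0 genes at an unadjusted p under 0.05, with 3 above 0, 3 below 0 and a median log2 fold change of -0.03 (4 above and 2 below without the library labelled Wnt GOF 5). Col12a1 and Col14a1, which coat type I fibrils and regulate their packing, had 0.19 ± 0.16 and -0.10 ± 0.295 (edgeR adjusted p = 0.999 for both). Col12a1 was at 28.8 to 44.7 CPM in Wnt GOF and 23.4 to 42.5 CPM in control libraries. The type IX chains, which decorate type II fibrils of cartilage, had -0.72 ± 0.594 for Col9a1, -0.22 ± 0.511 for Col9a3 and 0.08 ± 0.381 for Col9a2. Col9a1 had a lowest, median and highest of 0.997, 5.70 and 10.9 CPM in Wnt GOF and of 1.78, 11.4 and 12.9 CPM in control libraries, and the 4 libraries of set 1 were the lowest of both groups at 0.997 to 2.33 CPM. Without the library labelled Wnt GOF 5 it had -1.06 ± 0.6 (edgeR adjusted p = 0.842), and with the sets as a block -0.67 ± 0.193 (adjusted p = 0.084). Col16a1, found near fibrils and basement membranes, had 0.03 ± 0.285. Of 6 tested markers of cartilage and skeletal tissue, 3 lay above 0 and 3 below 0 (median -0.0010), and 1 was called, Runx2, a transcription factor of bone formation, at 0.518 to 3.28 CPM in Wnt GOF and 0.0992 to 1.06 CPM in control libraries (log2 fold change 1.99 ± 0.408, edgeR adjusted p = 0.0404). The lowest Runx2 value in Wnt GOF was that of the library labelled Wnt GOF 5, and the rest of that group stood at 2.81 to 3.28 CPM. Over all tested genes 0.433% were called higher. With the closest library pairs summed, or with set 1 left out, 0 of all tested genes were called higher, so the Runx2 call was lost there. Lect1, of the same list, had 1.26 ± 0.27 (edgeR adjusted p = 0.0518, and 0.00715 with the sets as a block, with the limit given for Col1a2).

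Among the other types, the type VI chains make beaded filaments in the matrix around cells. Col6a1, Col6a2 and Col6a3 had 0.03 ± 0.171, 0.03 ± 0.178 and 0.13 ± 0.11, and Col6a6 had 0.25 ± 0.221 (edgeR adjusted p = 0.999 for each). Col6a1 was at 21.8, 28.8 and 37.0 CPM in Wnt GOF and at 20.8, 25.3 and 41.9 CPM in control libraries (lowest, median and highest). Col8a1 and Col8a2, whose short chains form hexagonal networks, had 0.32 ± 0.239 and 0.04 ± 0.189. The Col8a1 value rested on control 2 and 3, at 3.07 and 2.35 CPM, against 5.59 to 7.70 CPM in all other libraries of both groups, and was -0.04 with set 1 left out. Of the 10 tested genes of the other types 1 was called and 9 had positive log2 fold changes, with a median of 0.19 (8 of 10 without the library labelled Wnt GOF 5). Their summed level, with the 6 untested genes included, was 140.0 to 196.7 CPM in Wnt GOF and 122.1 to 164.1 CPM in control libraries, of which Col23a1 alone took 55.1 to 73.2 CPM and 33.4 to 49.2 CPM in the same order.

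Differences between library sets were larger than those between Wnt GOF and control libraries for most collagen genes. Of the spread of log2(CPM + 0.5) over the 12 libraries, the sets held a median of 69.5% and the groups a median of 5.26% over the 33 genes, and the sets held more than the groups in 30 of them. The exceptions were Col23a1 (76.2% between groups, 1.80% between sets), Col25a1 (42.1% and 23.0%) and Col24a1 (40.2% and 20.8%). At the other end stood Col2a1, with 0.495% between groups and 96.7% between sets. These shares are a description: the sets were made from all genes of the same libraries, and 3 sets can hold more of a spread than 2 groups. In Col2a1 the 4 libraries of set 1 were at 5.34 to 6.68 CPM and the other 8 at 15.6 to 22.3 CPM. Set 1 did not overlap the other 8 libraries in 10 collagen genes. It was lower in Col2a1, Col9a1, Col9a3, Col12a1, Col13a1, Col18a1 and Col4a6 and higher in Col6a1, Col14a1 and Col15a1 (of all tested genes, 987 were lower and 929 higher). The summed level of the 9 cartilage and skeletal markers was 73.1 to 93.6 CPM in set 1 and 152.3 to 249.8 CPM in the other libraries. The largest part of that sum was Hapln1, at a mean of 42.3 CPM in set 1 and 122.0 CPM in the others. Hapln1 is also on the cushion and valve list, so this sum is not one of cartilage alone. The epicardial markers summed to 303 to 343 CPM and 370 to 436 CPM, and the cardiomyocyte markers to 35681 to 39131 CPM and 28322 to 32024 CPM in the same order. The erythroid markers summed to 6304 to 9574 CPM in set 1 and 12902 to 85084 CPM in the other libraries, and the neural crest, nerve and Schwann cell markers to 25.9 to 27.3 CPM and 27.7 to 43.9 CPM. The part of these cell types in the differences between sets was not tested.

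**Figure D4:**
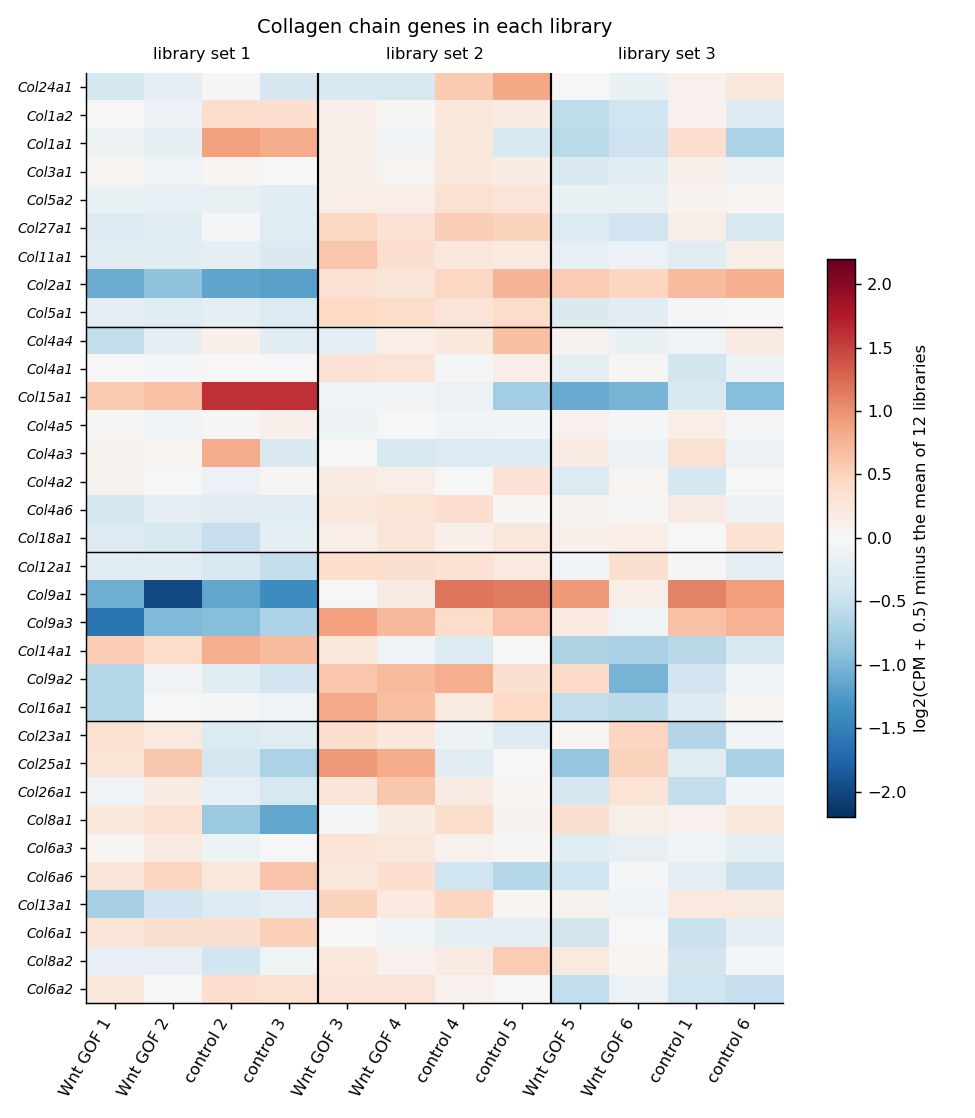
Log2(CPM + 0.5) of the 33 tested collagen chain genes minus each gene's mean over 12 libraries, by library (columns, by library set with Wnt GOF left of control in each) and by type (rows, in the order fibrillar, basement membrane, FACIT, other). Col2a1 and Col9a1 are low and Col15a1 high in all 4 libraries of set 1, while Col23a1 is above its mean in all 6 Wnt GOF libraries.

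Chains were compared as ratios of CPM within each library for 6 pairs, 5 of chains of the same collagen type (I, IV, V or VI) and 1, Col3a1 to Col1a1, between types III and I. These ratios depend on transcript length and are no stoichiometry. The ratio of Col1a1 to Col1a2 was 0.952, 0.984, 1.05, 0.972, 1.00 and 1.02 in Wnt GOF libraries 1 to 6, against 1.25, 1.47, 1.41, 1.04, 0.723 and 0.776 in control libraries 1 to 6. The SD of its log2 was 0.0488 in Wnt GOF and 0.436 in control libraries, and every Wnt GOF value lay within the control range. The mean log2 ratio differed by -0.11 (exact two-sided permutation test, p = 0.535, adjusted over 6 pairs 0.828). The ratio of Col3a1 to Col1a1 was 1.26 to 1.53 in Wnt GOF and 0.706 to 1.87 in control libraries, with log2 SDs of 0.0987 and 0.612 and a difference of 0.29 (exact permutation p = 0.279, adjusted 0.828). No test of these spreads was made. Col4a1 to Col4a2 was 2.41 to 2.82 in Wnt GOF and 2.26 to 2.79 in control libraries, a log2 difference of 0.08 (exact permutation p = 0.214, adjusted 0.828). The differences were 0.05 for Col5a1 to Col5a2, 0.02 for Col6a1 to Col6a2 and 0.05 for Col6a3 to Col6a1, each with an adjusted p of 0.828 or above. With 6 against 6 libraries the smallest exact p is 0.00216.

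**Figure D5:**
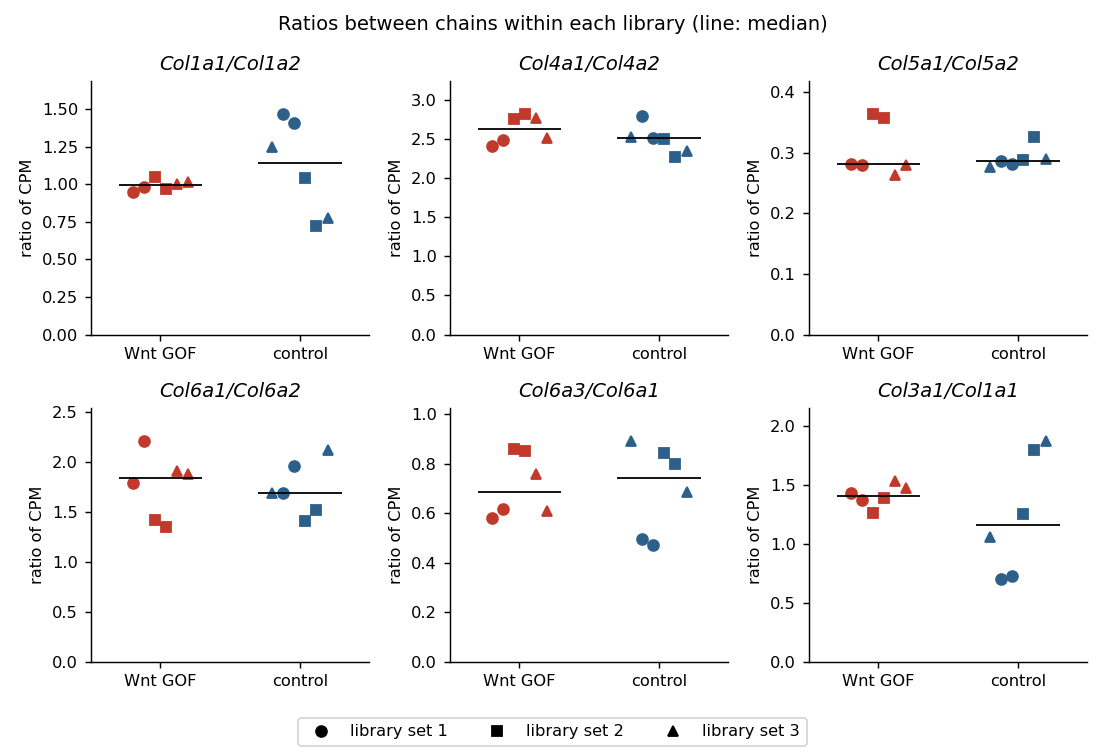
Ratio of CPM between 6 pairs of collagen chains in each library (points, with the library set as symbol), Wnt GOF left and control right, with the median as a line. The Col1a1 to Col1a2 ratio spans 0.952 to 1.05 in Wnt GOF and 0.723 to 1.47 in control libraries.

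The machinery that makes, trims and binds collagen was measured in 6 gene lists. Of 10 tested genes of procollagen processing and crosslinking, 2 fell and 0 rose, beside 0.0677% lower and 0.433% higher of all tested genes. Those that fell were Adamts2 and Adamts3, proteases that remove the N-terminal propeptides of fibrillar procollagens. Adamts14, a gene of the same family and list, had 0.09 ± 0.203 (edgeR adjusted p = 0.999). Adamts2 was at 2.29, 4.58 and 6.14 CPM in Wnt GOF and at 7.54, 9.05 and 13.3 CPM in control libraries (lowest, median and highest), a log2 fold change of -1.13 ± 0.215 (SE). Adamts3 was at 13.1, 16.2 and 21.3 CPM in Wnt GOF and at 22.2, 24.4 and 28.6 CPM in control libraries, or -0.61 ± 0.115 on the log2 scale (edgeR adjusted p = 0.022 for both). For both genes the groups did not overlap, which held in either direction for 0.460% of all tested genes. With the closest library pairs summed, 1 of all tested genes was called lower, so at most 1 of these 2 calls held there. Loxl2, a lysyl oxidase family member that crosslinks collagen, had -0.32 ± 0.237 (edgeR adjusted p = 0.999). It passed the threshold only in the fit that blocks on library set (edgeR adjusted p = 0.0242), which called 2.00% of all genes. That p has the same limit as for Col1a2. Loxl1 and Loxl3, of the same family, had 0.04 ± 0.183 and 0.11 ± 0.164. Lox, which oxidises lysines so that fibrils can be crosslinked, had -0.43 ± 0.189 (edgeR adjusted p = 0.722), with its highest values, 40.3 and 39.9 CPM, in control 4 and 5. The median of this list was 0.06.

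Of 21 tested enzymes and chaperones of collagen biosynthesis, among them prolyl and lysyl hydroxylases and Serpinh1, 0 were called and 0 stood at an unadjusted p under 0.05, with a median log2 fold change of -0.01. The lowest p were those of Colgalt2, a collagen galactosyltransferase, at 0.30 ± 0.178, and Plod2, a lysyl hydroxylase, at -0.16 ± 0.122. Of 8 tested receptors and uptake genes 0 were called, 6 lay below 0 and the median was -0.11. Ddr1, a receptor tyrosine kinase that binds collagen, was at 31.0 to 35.9 CPM in Wnt GOF and 36.4 to 52.4 CPM in control libraries, groups that did not overlap (log2 fold change -0.34 ± 0.0899, edgeR adjusted p = 0.18). With the library sets as a block its edgeR adjusted p was 0.0285, with the same limit on that p as for Col1a2. Lair1, an inhibitory collagen receptor of leukocytes, had 0.91 ± 0.331 (edgeR adjusted p = 0.493). Of 8 macrophage and leukocyte markers 0 were called, and 4 stood at an unadjusted p under 0.05 in edgeR, beside 6.30% of all tested genes. The median of these markers was 0.39. Their sums overlapped, at 51.0 to 95.2 CPM in Wnt GOF and 47.9 to 66.8 CPM in control libraries. Of 10 tested genes of collagen degradation, 15 of fibril-associated proteoglycans and fibrillogenesis and 15 basement membrane partners of type IV collagen, 0 were called, and the medians were -0.01, -0.05 and 0.04. Named by their p were Timp1, a metalloproteinase inhibitor, at 0.26 ± 0.116, Ctsk, a collagen-cleaving cathepsin, at -0.44 ± 0.283, Fn1, fibronectin, at 0.23 ± 0.127, Tgfbi at -0.42 ± 0.3, Pxdn, the peroxidase that crosslinks type IV collagen, at -0.20 ± 0.0694 (edgeR adjusted p = 0.423), and Lamc1, a laminin chain, at 0.16 ± 0.0704.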

How the data were processed

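Raw read counts per Ensembl gene and library were taken from the deposited count table, per the file headers. The submitters' processing notes name Subread, featureCounts and edgeR. No source used here gives versions, the genome build, the annotation or the strand setting. The table's 41422 rows hold 40800 gene IDs, and 622 repeated rows with the same counts were left out. Its GC percent column is a deposited annotation that was left aside. Per the file headers, the authors' own comparison, also deposited, lists log2 CPM per library, a log2 fold change, a p-value, an adjusted p-value and a log-odds score for each gene. Its fold column was left aside.

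Counts were fitted in R 4.3.3 with edgeR 4.0.16 (filterByExpr with a minimum count of 10, TMM scaling, robust quasi-likelihood test, group as the only term), adjusted by Benjamini-Hochberg over 14774 genes and called under 0.05. CPM uses TMM-scaled library sizes over the tested genes. The SE was derived from the F statistic. Alternatives were other scalings and filters, DESeq2 1.42.0, limma-voom (limma 3.58.1), replicate and library-set blocks, the closest library pairs summed, haemoglobin genes left out, and each library left out. Leaving out each library set was added after seeing the data. Library sets came from average-linkage clustering, cut in 3, of the correlations of deviations from group means. No library pair agreed within sampling noise (a mean chi-square per gene of about 1), but 3 pairs stood close, Wnt GOF 3 and 4 at 3.07, Wnt GOF 1 and 2 at 3.10 and control 2 and 3 at 3.32, while all other pairs had 12.8 or more. The labels do not say whether these pairs share an animal or a pool, and the fit with them summed is given. Exon lengths are the exon unions of GENCODE M21 (GRCm38), matched by gene ID for 44 of 44 genes. Promoters are RefSeq's.

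The genes, types, lists and naming rule were chosen with earlier results of these data known. Every collagen gene is named, with values for the 3 of each type with the lowest p, the 2 highest per kb and all chains of types I, III, V and VI and Col4a1 and Col4a2. Of each pathway list the called genes and the 2 with the lowest p are named, and of each marker list the called genes, with counts and sums. A few other list members were named after their values were seen. Axin2, the library labelled Wnt GOF 5 and the spreads of the ratios were singled out after their values were seen. The edgeR comparison was checked on simulated data with log2 changes of 1 and 2 in either direction. Of changes of 1, 84% of those higher and 78% of those lower were recovered, and 2.19% of calls were false. These shares may not carry over to the real libraries, which hold close pairs. With those pairs summed, 64 higher and 10 lower calls became 0 and 1. All tested collagen genes had smaller changes, from -0.76 to 0.91, for which this check gives no recovery. Genes near the count filter rest on few reads, and their values are the least precise.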

Additional observations from a re-analysis of the deposited data

Results flagged for a closer look

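Of 66 groups of CPM values (33 genes in 2 groups) and 12 groups of ratios, 1 held a library set apart from the other 5 of its group by Dixon's criterion for 6 values, and chance sets apart about 1 in 20 groups. It was the ratio of Col5a1 to Col5a2 CPM, which was 0.325 in control 5, while the nearest control library had 0.290, a gap of 0.709 of the range. Wnt GOF 3 and 4, of the same library set, had 0.364 and 0.357, the highest values of all 12 libraries.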

How the results depend on the processing

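Of the values of single collagen genes under 25 alternatives, 736 kept their direction and their side of the threshold, 79 reversed, 4 lost and 4 gained a call. Other scalings moved the median of all genes by at most 0.01. Collagen genes called higher, 1 in the fit as reported, were 2 in DESeq2, 2 with library set 3 left out, and 0 in limma-voom, with the closest pairs summed, with set 1 or set 2 left out and at a threshold of 0.01. With single libraries left out they were 1 to 2, and the 2 came without the library labelled Wnt GOF 5. Col25a1 had an edgeR adjusted p of 0.0419 with set 3 left out. Collagen genes called lower were 0, and 1 with the library-set block. Of all genes, 64 were higher and 10 lower. Higher calls were 97 with no count filter, and higher and lower calls were 135 and 25 in DESeq2, 3 and 3 in limma-voom, 195 and 100 with the library-set block, 0 and 1 with pairs summed, 0 and 2, 1 and 1, and 107 and 27 with sets 1, 2 and 3 left out, and 8 and 2 at 0.01. With single libraries left out they were 34 to 149 higher and 4 to 28 lower. The highest came without the library labelled Wnt GOF 5, and without Wnt GOF 1, 2, 3 and 4 there were 35, 34, 44 and 37 higher and 5, 5, 4 and 5 lower, and without control 3 there were 55 and 6. The cause was not tested. Same-numbered libraries did not pair (correlations of -0.377 to 0.463), and the replicate block gave 1 collagen gene higher, 0 lower, and 47 and 8 of all genes.

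Signs reversed as follows. With set 1 left out the log2 fold change was 0.061 for Col14a1, 0.042 for Col15a1, 0.012 for Col4a3, -0.042 for Col8a1 and -0.0074 for Col18a1. With set 2 left out it was -0.053 for Col11a1, -0.36 for Col16a1, -0.0097 for Col18a1, -0.015 for Col4a6, -0.016 for Col6a1, -0.084 for Col6a2 and -0.0081 for Col6a6. With set 3 left out it was 0.053 for Col5a1, -0.011 for Col6a1, -0.012 for Col6a2, -0.12 for Col8a2 and 0.15 for Col9a3. With the closest pairs summed it was -0.014 for Col11a1, -0.11 for Col16a1, -0.039 for Col18a1, -0.0010 for Col4a2, -0.020 for Col4a6 and -0.025 for Col9a2. Col16a1 had -0.091 in limma-voom, -0.067 with the replicate block and -0.056 with the library-set block, and Col9a2 -0.014 in limma-voom. Col18a1 had -0.0024 with DESeq2 size factors, -0.00062 with no count filter, -0.0023 in DESeq2 and -0.0047 without haemoglobin genes. Leaving out single libraries gave -0.059 to 0.14 for Col11a1, -0.23 to 0.078 for Col14a1, -0.19 to 0.16 for Col16a1, -0.082 to 0.069 for Col18a1, -0.025 to 0.12 for Col4a2, -0.19 to 0.13 for Col4a3, -0.048 to 0.099 for Col4a6, -0.14 to 0.047 for Col5a1, -0.053 to 0.17 for Col6a1, -0.059 to 0.13 for Col6a2, -0.045 to 0.19 for Col8a2, -0.11 to 0.35 for Col9a2 and -0.50 to 0.0013 for Col9a3. The log2 ratio difference spanned -0.053 to 0.089 for Col6a1 to Col6a2 and -0.051 to 0.13 for Col6a3 to Col6a1.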

Other observations

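Col6a5, a type VI chain below the count filter, had 11 counts over the 6 Wnt GOF libraries and 32 over the 6 control libraries. Single libraries had 0 to 3 counts in Wnt GOF and 3 to 9 in control. In CPM both Wnt GOF libraries lay below both control libraries in each of the 3 library sets. Such a pattern, in either direction, held for 2.96% of all tested genes, and the sets were derived from the same libraries. Without the count filter its log2 fold change was -1.68, with p = 0.00767 and an adjusted p of 0.462 in edgeR, and the authors' deposited table gives -1.61 with an adjusted p of 0.413. It was singled out after its values were seen. Of the other genes below the filter, Col22a1 had 49 counts in Wnt GOF and 36 in control libraries, Col20a1 25 and 14, and Col6a4 12 and 20.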
